A study of Homo sapiens with 6 samples.

Results

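The long noncoding genes described here carry a LINC number as their symbol, the systematic name for a long intergenic noncoding RNA with no better known name, and had a mean level of at least 0.5 FPKM over 6 libraries. FPKM is the read count of a gene scaled to its exonic length and to the total count of the library. Of 60605 genes in the table, 2138 had such a symbol, and 162 of them reached the floor. No read was counted for 1328 of the 2138 in any library, and 648 were counted but stayed under the floor. The members were thus selected on their mean FPKM over all libraries, and their levels are given as a description. A member low in 1 group could pass through the other, which was the case for 13 of them, named further on. The libraries came from SW480, a long-established cell line derived from a human colon adenocarcinoma. In 3 libraries the cells carried a lentivirus with TIPE, the gene TNFAIP8, and in the other 3 the empty lentiviral vector. Both groups had been selected with puromycin, so the controls share infection and selection, and the labels do not tell whether replicate libraries were grown or infected separately. The p-values below thus rest on a spread between libraries that could be technical alone.

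A long noncoding RNA is transcribed, spliced and usually polyadenylated like a messenger RNA, but holds no long reading frame. Some act on chromatin or transcription beside their own gene, others bind proteins or microRNAs elsewhere in the cell, and for most LINC genes no function is established. They tend to be expressed at low levels and in few cell types, and several are raised in colon and other carcinomas. The libraries were made from poly(A) RNA, so transcripts without a tail would have been missed.

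TNFAIP8 itself rose from 175, 158 and 104 counts in the vector libraries to 87318, 98811 and 62902 in the TIPE libraries, or from 1.04 ± 0.263 to 576 ± 48.3 FPKM (mean ± SD, n = 3 each), which is what the labels describe. Total counts ranged from 13957349 to 20345330 per library. Of 12 genes listed for a colon epithelial line, 8 were above the floor, among them KRT8, KRT18, EPCAM, CDH1 and the mesenchymal marker VIM. KRT20, CDX1, CEACAM5 and CDH17 were below it. CDX1 was at 0. Of the 8, 5 rose and 2 fell. CDH1, the epithelial cadherin, went from 35.9 to 13.7 FPKM (log2 fold change -1.32) and EPCAM changed by -0.20. KRT8 (0.36), KRT18 (0.71), KRT19 (0.26) and CDX2 (0.92) rose, and so did VIM, encoding vimentin (0.96). These markers thus moved alongside the changes below, and their part in them was not tested. The 5 leukocyte markers summed to 0.65 to 0.78 FPKM in the vector and 0.56 to 0.94 FPKM in the TIPE libraries, with PTPRC and CD163 at 0. CD14 alone of them was above the floor, at 0.503 FPKM in each group, and was not called. LYZ was at 0.17 and 0.18 FPKM. The 5 fibroblast markers summed to 0.31 to 0.49 and 0.63 to 0.66 FPKM, with COL1A2 and COL3A1 at 0, and the 3 endothelial markers to 0.14 to 0.21 and 0.21 to 0.30 FPKM. The higher fibroblast sum came from PDGFRB alone (0.24 and 0.537 FPKM), while COL1A1 was at 0.123 and 0.107 FPKM and DCN at 0.0067 and 0.0033 FPKM. Its part in the results below was not tested either. The 13 protein genes of the mitochondrial chromosome took 4.77% to 5.73% of the counts.

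The promoters of 4 members are shown first, because these are the members with the largest changes whose start is held in the RefSeq promoter table. Each window holds 250 bases before and 50 after the RefSeq start (GRCh38.p14), read 5′ to 3′ on the strand of the gene. Capitals mark every match, on either strand, to a motif of the list described after the sequences. LINC01976 is at chr17:43938011-43938310 on the plus strand, LINC01819 at chr2:43039494-43039793 on the minus strand, LINC01978 at chr17:79919107-79919406 on the plus strand and LINC00659 at chr20:62776807-62777106 on the minus strand. The first 3 were lower and LINC00659 was higher in the TIPE libraries, and LINC01976 and LINC01978 passed the floor through the vector group.
LINC01976: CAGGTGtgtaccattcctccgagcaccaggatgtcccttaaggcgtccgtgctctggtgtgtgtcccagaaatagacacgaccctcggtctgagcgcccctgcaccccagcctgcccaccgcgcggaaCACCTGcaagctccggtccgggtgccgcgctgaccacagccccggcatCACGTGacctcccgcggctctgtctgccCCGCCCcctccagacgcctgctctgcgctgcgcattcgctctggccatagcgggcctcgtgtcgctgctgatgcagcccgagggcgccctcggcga
LINC01819: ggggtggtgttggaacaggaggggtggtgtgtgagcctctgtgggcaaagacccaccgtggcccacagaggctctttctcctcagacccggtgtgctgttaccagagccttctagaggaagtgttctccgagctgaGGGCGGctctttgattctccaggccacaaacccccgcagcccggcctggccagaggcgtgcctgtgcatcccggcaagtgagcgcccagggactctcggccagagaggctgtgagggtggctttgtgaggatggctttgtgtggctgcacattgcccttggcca
LINC01978: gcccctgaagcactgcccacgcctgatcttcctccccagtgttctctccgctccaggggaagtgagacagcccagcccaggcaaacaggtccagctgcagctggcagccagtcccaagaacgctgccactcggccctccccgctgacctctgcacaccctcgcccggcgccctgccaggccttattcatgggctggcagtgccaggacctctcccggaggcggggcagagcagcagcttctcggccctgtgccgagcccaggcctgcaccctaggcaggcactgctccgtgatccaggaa
LINC00659: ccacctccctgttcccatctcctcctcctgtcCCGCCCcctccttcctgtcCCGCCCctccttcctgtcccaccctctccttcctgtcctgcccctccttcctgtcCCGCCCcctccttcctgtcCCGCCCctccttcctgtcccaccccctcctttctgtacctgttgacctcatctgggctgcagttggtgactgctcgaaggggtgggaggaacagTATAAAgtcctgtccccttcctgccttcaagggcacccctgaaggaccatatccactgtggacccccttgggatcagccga
The RefSeq start coincided with the deposited start for LINC01978, and lay 102 bases from it for LINC01976, 140 bases for LINC00659 and 1119 bases for LINC01819.

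Each motif was searched on both strands. The core promoter motifs were the TATA box, spelled TATAAA, the CCAAT box, searched by those letters, and the GC box, spelled GGGCGG. The sites of regulators were the AP-1 site, spelled TGANTCA, the E-box bound by SNAI and ZEB factors, spelled CACCTG, the core of the hypoxia response element, spelled ACGTG, and the NF-kappaB site. The E-box of MYC and MAX, spelled CACGTG, always contains the hypoxia core. The LINC00659 window held TATAAA starting 31 bases before the start, and GGGCGG in reverse 4 times in a repeated C-rich stretch. LINC01976 held CACCTG on both strands, CACGTG once and 1 GC box, LINC01819 held 1 GC box, and LINC01978 held none of these letters. Promoter windows were found for 117 members, of which 17 were called higher and 10 lower in the test described next. TATAAA was in 15.4% of the members' windows and in 11.5% of all 35116 windows of the table. ACGTG was in 29.1% against 21.4%, CACGTG in 10.3% against 7.26%, CCAAT in 37.6% against 34.6% and TGANTCA in 8.55% against 7.71%. GGGCGG was in 43.6% against 45.0%, CACCTG in 18.8% against 20.6% and the NF-kappaB site in 5.98% against 11.3%. By direction, windows of the 17 called higher and of the 10 called lower held TATAAA in 5 and 0, CCAAT in 6 and 5, GGGCGG in 7 and 2, TGANTCA in 2 and 1, CACCTG in 4 and 2, ACGTG in 5 and 2, CACGTG in 1 and 1 and the NF-kappaB site in 1 and 0. These shares are a description of letters in a fixed window.

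Between the groups, 39 of the 162 members changed, at an adjusted p under 0.05 in the quasi-likelihood test of edgeR, with p-values adjusted by Benjamini and Hochberg's method over all 14192 genes at or above the floor. This was 24.1% of the members, against 41.6% of all genes tested. In the TIPE libraries 21 members rose (20.9% of all genes did) and 18 fell (20.7%). In such bulk libraries, fewer cells that make a transcript and less of it per cell cannot be told apart. The other 123 did not pass the test, and 53 of the 162 had an unadjusted p under 0.05. The median log2 fold change over the members was 0.02, and -0.00059 over all genes. At least 2-fold changes were called in 8 members, 4 in each direction, and in 1.44% of all genes. Of these 8, LINC01117, LINC01976 and LINC01978 reached the floor of 0.5 FPKM through 1 group, as did 6 of the 39. With members that reached it in both groups alone, 18 rose and 15 fell. The split of 21 higher to 18 lower moved with the scaling. It was 18 to 30 with library totals alone, where the median over all genes tested was -0.07. The split was 27 to 12 after each library's trend with GC content and length was removed. Without vector replicate 2 it was 15 to 11. Calls over all 14192 genes tested moved too, from 5903 to 6017 with library totals alone. They were 4846 with the GC and length trend removed and 4491 without vector replicate 2.

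The share of members called followed their counts. The median member had 60.25 counts per library, against 431 for the median gene tested, and a level of 1.25 FPKM against 5.10. With a mean count under 50, 7 of 70 members were called (10.0%), against 8.29% of all genes in that class. From 50 to under 200 counts it was 18 of 62 against 33.3%, and at 200 or more 14 of 30 (46.7%) against 52.2%. The median standard error of the log2 fold change was 0.29, 0.16 and 0.08 in the 3 classes, so small changes were least detectable in the 70 low members. The median absolute log2 fold change of members, called or not, was 0.30, 0.23 and 0.18, against 0.37, 0.25 and 0.19 over all genes of the same classes. All members together took 0.195% to 0.206% of the counts, and the 5 with the most counts held 40.3% of that.

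**Figure D1:**
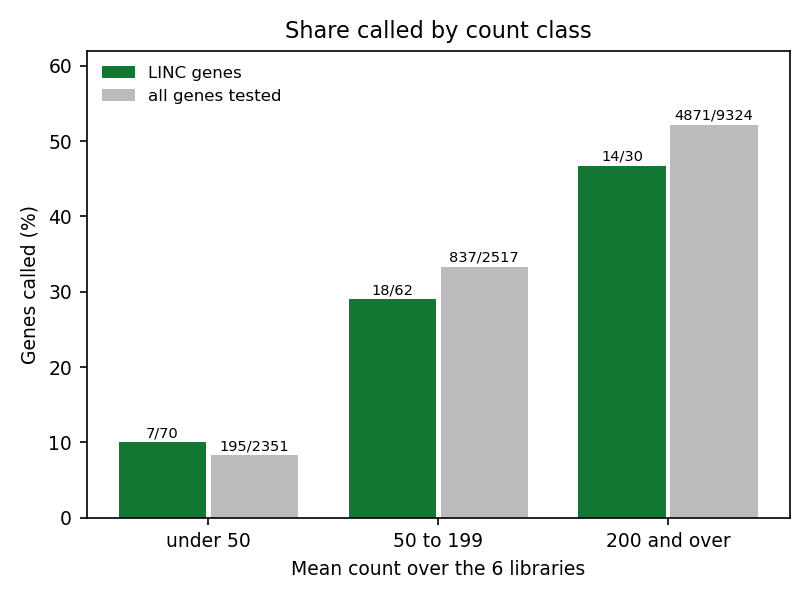
Share of genes called (adjusted p under 0.05, edgeR) in 3 classes of mean count over the 6 libraries, for the 162 LINC genes and for all 14192 genes tested. Numbers above the bars are called over tested. The share rises from 10.0% to 46.7% in LINC genes and from 8.29% to 52.2% in all genes.

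**Figure D2:**
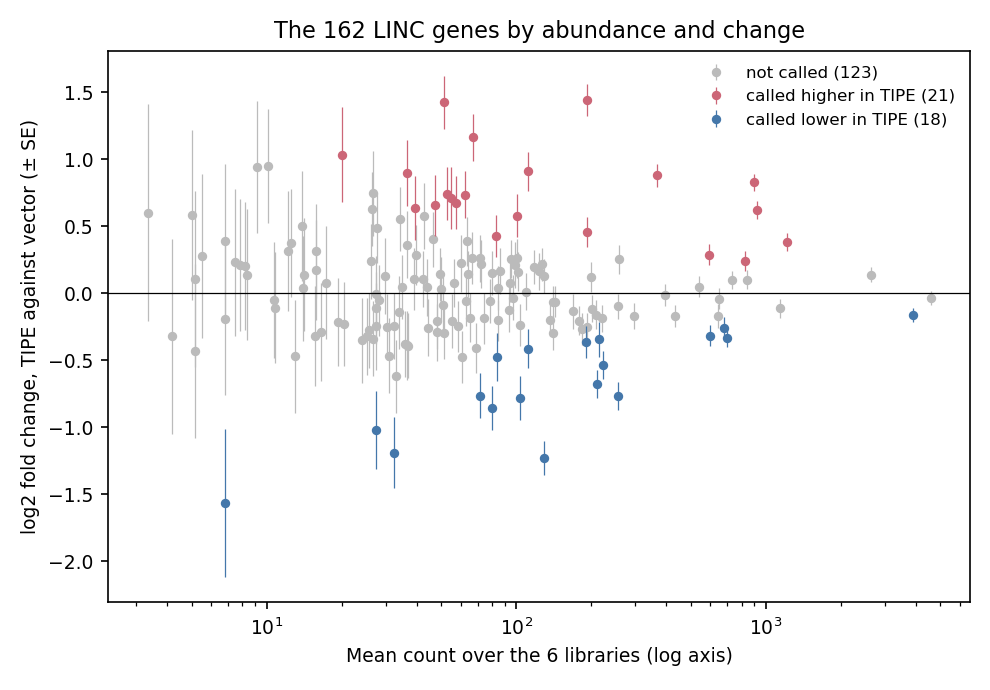
Log2 fold change of each of the 162 LINC genes, TIPE against vector, with its standard error, against the mean count over the 6 libraries on a log axis. The 21 called higher and 18 called lower are coloured. Standard errors widen to the left, where most of the 123 uncalled members lie.

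LINC01559 rose most. It is a 4-exon gene on chromosome 12 (ENSG00000180861, chr12:13371089-13387167, hg38, minus strand) that has been reported in pancreatic and gastric cancer. Its level was 1.72, 1.84 and 1.26 FPKM in the vector libraries and 4.37, 3.92 and 4.39 FPKM in the TIPE libraries, a 2.72-fold increase (log2 fold change 1.44 ± 0.12 SE, adjusted p = 2.09e-08). Every TIPE library was above every vector library. GRIN2B, a glutamate receptor subunit gene and the nearest tested gene with a symbol, fell by 0.95 on the log2 scale. It was at 0.953 FPKM with the vector and 0.467 FPKM with TIPE, so it passed the floor through the vector group.

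LINC02413 (chr12:92999218-93019820, plus strand) was at 1.36, 1.39 and 1.38 FPKM with the vector and 3.32, 3.58 and 3.72 FPKM with TIPE. The 3 vector libraries lay within 0.03 FPKM of each other and the groups were far apart (log2 fold change 1.43 ± 0.20, adjusted p = 8.94e-06). Its nearest tested gene with a symbol, the pseudogene RPL41P5, rose too (0.55). LINC02404 (chr12:91876924-91880659, plus strand), 1118559 bp away, was among the 6 members of highest level. It had 26.79, 30.36 and 29.72 FPKM with the vector and 40.81, 44.06 and 42.23 FPKM with TIPE (0.62 ± 0.07, adjusted p = 5.34e-07). LINC01619, between them, rose from 0.477 ± 0.148 to 0.70 ± 0.0361 FPKM (0.66 ± 0.23, adjusted p = 0.0236), but overlaps BTG1 on the same strand. Its call was lost without vector replicate 2 (0.44, adjusted p = 0.174), vector replicate 3 (0.62, 0.069) or TIPE replicate 2 (0.60, 0.0835). With every library kept it was lost in DESeq2, another test on counts (adjusted p = 0.0548). With LINC02418, a transcript reported to be raised in colorectal cancer (0.46 ± 0.11, adjusted p = 0.00282), 5 of the 9 members on chromosome 12 were called higher and 0 lower. Over all genes tested on that chromosome, 20.3% were higher and 23.1% lower. LINC01619, among the 5, passed the floor through the TIPE group, which favours a higher call.

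LINC00659 (ENSG00000228705, chr20:62774121-62776996, minus strand), reported to promote growth of colon cancer cells, was at 1.89, 1.52 and 1.63 FPKM with the vector and at 3.89, 3.58 and 3.20 FPKM with TIPE. The groups did not overlap, and the increase was 2.24-fold (1.17 ± 0.18, adjusted p = 2.46e-05). NTSR1, the neurotensin receptor gene, lies on the opposite strand with a gap of 11349 bp between the 2 gene bodies, which is not the distance between their starts. It rose too (0.70, from 31.9 to 49.4 FPKM). LINC01124 (chr2:170712451-170714567, minus strand) lies 769 bp from SP5, a transcription factor gene known as a target of WNT signalling. LINC01124 had 2.28, 1.96 and 2.61 FPKM with the vector and 4.00, 3.81 and 4.40 FPKM with TIPE (0.91 ± 0.14, adjusted p = 3.25e-05), and SP5 rose from 28.8 to 40.5 FPKM (0.55).

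LINC02261 (chr4:27217479-27282225, plus strand) was both highly expressed and increased. It had 14.86, 13.89 and 14.03 FPKM with the vector and 24.18, 23.47 and 24.70 FPKM with TIPE (0.83 ± 0.06, adjusted p = 3.96e-09). It rested on a mean of 897 counts per library, against 193 for LINC01559. STIM2, its nearest tested gene, did not pass the test (0.0050 on the log2 scale). LINC00923 (chr15:97572185-97875650, minus strand) was at 1.01, 0.99 and 0.91 FPKM with the vector and 1.72, 1.74 and 1.63 FPKM with TIPE (0.88 ± 0.08, adjusted p = 8.44e-08). ARRDC4, an arrestin-domain gene 85052 bp away on the other strand, moved in the opposite direction and fell by 0.83 on the log2 scale. LINC02178 (chr16:50390916-50395133, minus strand) was at 4.00, 4.10 and 2.93 FPKM and at 5.74, 6.01 and 8.26 FPKM, a wider spread within each group (0.90 ± 0.25, adjusted p = 0.00572). BRD7, a bromodomain gene 21927 bp away, was not called (0.03).

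LINC01117 and LINC01116 overlap on opposite strands of chromosome 2 near the HOXD genes, and both rose. LINC01117 had 0.34, 0.51 and 0.40 FPKM with the vector and 1.21, 0.62 and 0.67 FPKM with TIPE (1.04 ± 0.35, adjusted p = 0.0224). TIPE replicate 1 was the high library, and without it the change was 0.67 with an adjusted p of 0.174. The call was also lost without vector replicate 1 (0.91, adjusted p = 0.0853) and vector replicate 3 (1.00, 0.0641). LINC01116 had 1.01, 1.11 and 1.33 FPKM against 1.66, 1.80 and 2.06 FPKM (0.75 ± 0.20, adjusted p = 0.00447). No strand setting of the counting is known here, so reads of such a pair cannot be assigned to one of the 2 with certainty.

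**Figure D3:**
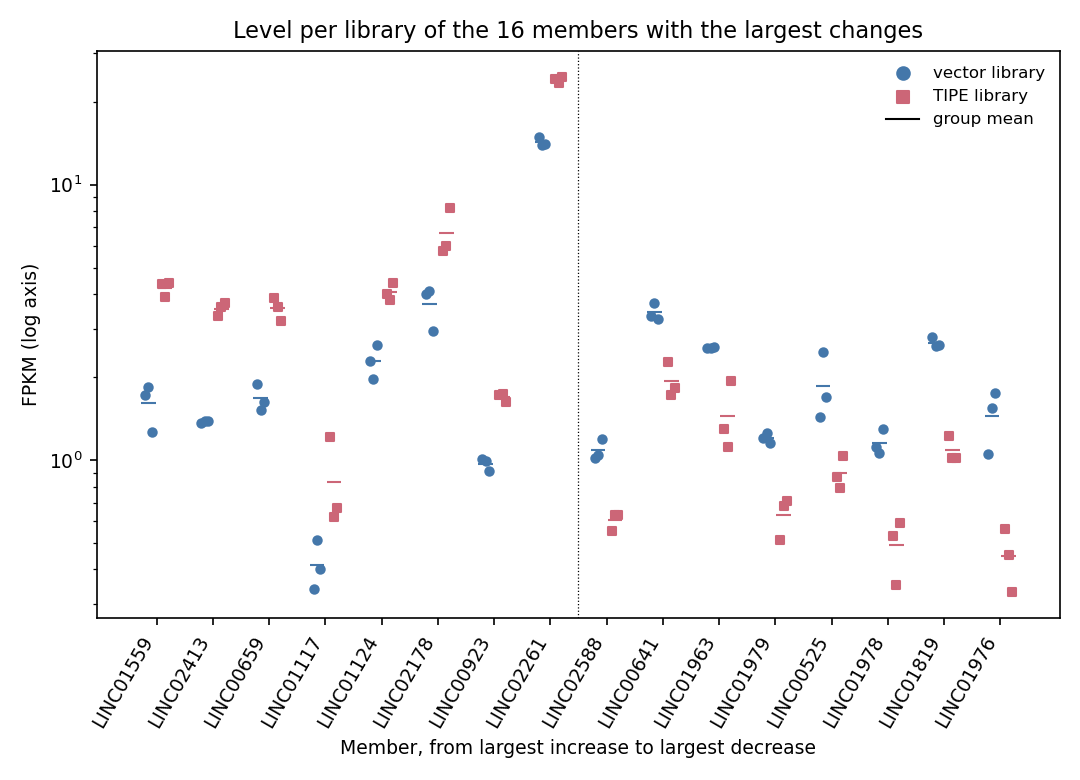
FPKM in each library, on a log axis, of the 8 LINC genes with the largest called increase and the 8 with the largest called decrease whose groups do not overlap. Circles are vector libraries, squares TIPE libraries and lines group means. LINC02261 rises from 14.3 to 24.1 FPKM, while most of the others lie under 5 FPKM.

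LINC01819 had the lowest adjusted p of the 4 members that fell at least 2-fold. This 6-exon gene (ENSG00000231826, chr2:43027823-43040662, minus strand) was at 2.79, 2.60 and 2.61 FPKM in the vector libraries and 1.22, 1.02 and 1.02 FPKM in the TIPE libraries, 2.34-fold lower (log2 fold change -1.23 ± 0.13, adjusted p = 3.23e-07). ZFP36L2, an mRNA decay factor gene 181739 bp away, fell too (-0.27). LINC01976 (chr17:43938363-43938959, plus strand) had the lowest fold change, -1.57 ± 0.55, but on 7, 13 and 11 counts against 4, 4 and 2 (adjusted p = 0.0278). It passed the floor through the vector group, at 1.45 against 0.447 FPKM, so a member of this kind had to differ. Its call was lost without vector replicate 2 (-1.52, adjusted p = 0.0868), vector replicate 3 (-1.43, 0.077), TIPE replicate 2 (-1.57, 0.0763) or TIPE replicate 3 (-1.42, 0.0661). It was lost as well with DESeq2 (adjusted p = 0.0727), with no filter (0.0558) and with the replicate number as a block (0.0504). TMEM101, its nearest tested gene, was not called (0.21).

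LINC01978 and LINC01979 overlap on opposite strands of chromosome 17 and fell together. LINC01978 (chr17:79919357-79925999, plus strand) was at 1.11, 1.06 and 1.29 FPKM with the vector and 0.53, 0.35 and 0.59 FPKM with TIPE (-1.19 ± 0.26, adjusted p = 0.00106). LINC01979 (chr17:79915252-79926725, minus strand) was at 1.20, 1.25 and 1.15 FPKM and at 0.51, 0.68 and 0.71 FPKM (-0.85 ± 0.16, adjusted p = 0.000284). Neither pair of groups overlapped. Of the 10 members on chromosome 17, 4 were called lower and 0 higher, where all genes tested on that chromosome were lower in 13.2% and higher in 26.4%. LINC01976 and LINC01978 are among the 4 and passed the floor through the vector group, which favours a lower call. LINC01978 and LINC01979 may also share reads. Chromosomes 12 and 17 were not chosen in advance from the 23 that held members.

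LINC00525 (chr7:47761476-47766772, plus strand), reported to promote growth of colon cancer cells, lies on the opposite strand within PKD1L1. It had 1.43, 2.46 and 1.69 FPKM with the vector and 0.87, 0.79 and 1.03 FPKM with TIPE (-1.02 ± 0.29, adjusted p = 0.00757). Vector replicate 2 was the highest library, and without it the change was -0.75 with an adjusted p of 0.104. TNS3, a focal adhesion gene and the nearest tested one, fell slightly (-0.18, adjusted p = 0.0448). LINC01963 (chr2:216217045-216220192, plus strand), beside the DNA repair gene XRCC5, was at 2.55, 2.54 and 2.57 FPKM with the vector and at 1.30, 1.11 and 1.93 FPKM with TIPE (-0.78 ± 0.16, adjusted p = 0.000673). XRCC5 did not pass the test (0.06). LINC00641 (chr14:21200079-21206900, minus strand) was at 3.34, 3.72 and 3.26 FPKM and at 2.27, 1.72 and 1.82 FPKM (-0.77 ± 0.11, adjusted p = 9.47e-06). HNRNPC, an RNA-binding protein gene 2235 bp from it on the same strand, was not called (0.02). LINC02588 (chr14:26598369-26806467, plus strand), now also named NOVA1-DT, was at 1.02, 1.04 and 1.19 FPKM and at 0.55, 0.63 and 0.63 FPKM (-0.76 ± 0.17, adjusted p = 0.000967). STXBP6, its nearest tested gene at 1548071 bp, rose (0.89). It was at 0.423 FPKM with the vector and 0.76 FPKM with TIPE, so it passed the floor through the TIPE group.

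The 6 members of highest level held 2 that rose clearly, LINC02404 and LINC02261, and the other 4 smaller differences. LINC00460, reported to promote growth and invasion of several carcinomas, was the highest of all (ENSG00000233532, chr13:106374477-106384315, plus strand). It had 59.77, 60.19 and 59.74 FPKM with the vector and 50.67, 50.96 and 51.18 FPKM with TIPE. The groups were separated by far more than their spread, yet on the scaled counts the change was small (-0.16 ± 0.05, adjusted p = 0.0166). It lost its call once the GC and length trend was removed (-0.09, adjusted p = 0.156) and with vector replicate 2 left out (-0.17, adjusted p = 0.0559). LINC00973, a transcript reported to be induced by chemotherapeutic drugs in colon cancer cells, was second at 53.81, 53.74 and 47.26 FPKM against 49.07, 52.98 and 56.38 FPKM. Its groups overlapped and it did not pass (0.10 ± 0.07, adjusted p = 0.266), but it did after the correction for GC content and length (0.26, adjusted p = 0.00457).

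LINC00623 had 17.37, 18.01 and 18.23 FPKM with the vector and 18.02, 20.32 and 22.07 FPKM with TIPE. The groups overlapped, and the change of 0.24 ± 0.07 (adjusted p = 0.0113) was lost after the GC and length correction (0.09, adjusted p = 0.347), with library totals alone (0.17, 0.0694) and without vector replicate 1 (0.21, 0.0641). It lies in a region of chromosome 1 with near-identical copies, so its count is uncertain. LINC00857, reported to promote proliferation in lung cancer, was at 17.3 ± 0.74 and 17.7 ± 0.204 FPKM and was not called (0.10 ± 0.07, adjusted p = 0.247). By level LINC00460 and LINC00973 did not differ beyond their spread in the TIPE libraries, and neither did LINC00623 and LINC00857 in the vector libraries. LINC00511, known to bind the chromatin silencer EZH2, had the most counts of all members, a mean of 4576, and 9.96 FPKM. It was not called (-0.03 ± 0.05, adjusted p = 0.658), and it was called higher after the GC and length correction (0.19, adjusted p = 0.00991).

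Of the 21 members that rose, 11 more were called with log2 fold changes of 0.29 to 0.75. LINC00261, which lies 2355 bp from FOXA2 and is known for a role in endoderm differentiation, was at 11.41, 12.79 and 11.00 FPKM against 14.39, 13.62 and 15.96 FPKM (0.38 ± 0.07, adjusted p = 0.000119). FOXA2, a transcription factor of gut endoderm, rose too (0.27, adjusted p = 0.00111). LINC01583 (0.73), LINC01116, LINC02418 and LINC00261 kept their calls under every alternative tried, and LINC00869 (0.29) lost its call with limma alone. The others lost their call without at least 1 library, and under some alternatives with every library kept. LINC00847, which overlaps the noncoding gene HEIH, changed by 0.68, and by 0.56 without vector replicate 2, where it was no longer called (adjusted p = 0.0692). LINC01134 changed by 0.71, and was not called once vector replicate 2 (0.45, adjusted p = 0.157), vector replicate 3 (0.66, 0.066) or TIPE replicate 2 (0.60, 0.0846) was left out. LINC02236 changed by 0.58, and by 0.49 without vector replicate 2 (adjusted p = 0.0513). LINC00513 changed by 0.64 and lost its call without vector replicates 1 (0.58, adjusted p = 0.105), 2 (0.67, 0.0795) or 3 (0.65, 0.0688) or TIPE replicates 1 (0.48, 0.154) or 3 (0.60, 0.0567). The symbol LINC01605 stands for 2 overlapping gene IDs on chromosome 8. ENSG00000253414 changed by 0.43 and lost its call without vector replicates 2 (0.45, adjusted p = 0.0746) or 3 (0.34, 0.117) or TIPE replicates 1 (0.44, 0.0529) or 3 (0.38, 0.0704). ENSG00000253161 was not called (-0.07). The GC and length correction ended the calls of LINC00513 (0.57, adjusted p = 0.0665), LINC01134 (0.58, 0.0561) and ENSG00000253414 (0.39, 0.0576). DESeq2 did not call LINC00513 (adjusted p = 0.0735) or ENSG00000253414 (0.082).

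Of the 18 that fell, 9 more had log2 fold changes of -0.68 to -0.26. LINC02604 (-0.68), LINC00174 (-0.53) and LINC02693 (-0.33) kept their calls under every alternative tried. LINC02693 was annotated as protein coding in GENCODE 29, the only member that was. LINC00649 fell by 0.32 on the log2 scale and lost its call after the GC and length correction (-0.15, adjusted p = 0.105). LINC00467, which has been reported to encode a small peptide of the ATP synthase, was at -0.34 and lost its call without each of vector replicates 1 (-0.37, adjusted p = 0.0612), 2 (-0.39, 0.0572) and 3 (-0.28, 0.15) and TIPE replicate 2 (-0.16, 0.311). LINC00342 was at -0.36 and lost it without vector replicates 1 (-0.37, adjusted p = 0.0502) or 2 (-0.24, 0.184) or TIPE replicate 2 (-0.32, 0.0784). LINC01881 was at -0.47 and lost it without vector replicates 1 (-0.49, adjusted p = 0.0722) or 3 (-0.41, 0.13) or TIPE replicates 2 (-0.50, 0.0666) or 3 (-0.31, 0.138). LINC00630, whose span holds a row of mitochondrial pseudogenes, was at -0.41 and lost it without vector replicates 2 (-0.31, adjusted p = 0.176) or 3 (-0.43, 0.0523) or TIPE replicate 3 (-0.33, 0.0709). The GC and length correction ended the calls of LINC00467 (-0.18, adjusted p = 0.322), LINC00342 (-0.16, 0.307), LINC00630 (-0.17, 0.401) and LINC01881 (-0.46, 0.0535). DESeq2 ended the calls of LINC00467 (adjusted p = 0.0653), LINC00630 (0.0627) and LINC01881 (0.0649). LINC01184, now SLC12A2-DT, was at -0.26 and lost it without vector replicate 2 (-0.23, adjusted p = 0.0648) or TIPE replicates 1 (-0.21, 0.0539) or 2 (-0.22, 0.0599). After the GC and length correction its sign turned, to 0.10 (adjusted p = 0.377). In all, 21 of the 39 called members kept the call under every alternative tried, and 16 lost it without some single library.

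**Figure D4:**
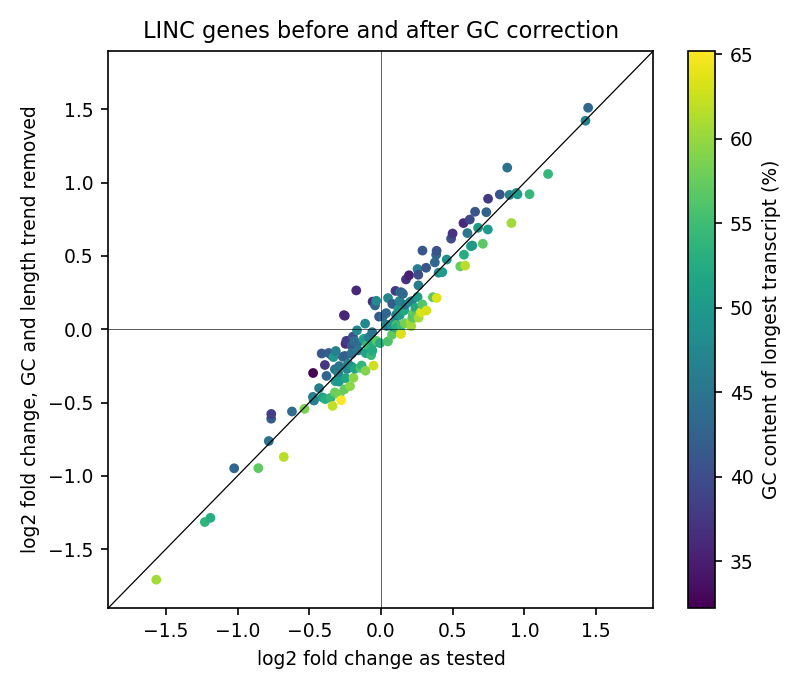
Log2 fold change of the LINC genes that have a GC content, as tested (x) and after the trend of each library with GC content and exonic length was removed (y), coloured by the GC content of the longest transcript. Points of low GC content lie above the diagonal and points of high GC content below it, and LINC01184 crosses from -0.26 to 0.10.

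The correction for GC content and length left 28 of the 39 calls in place. It ended 11 calls and added 11 others, 10 of them higher. Members added on the higher side included LINC00511, LINC00973 and LINC00963, which was at 11.0 ± 0.394 and 11.6 ± 0.246 FPKM (0.14 uncorrected, adjusted p = 0.0527; 0.25 corrected, adjusted p = 0.00209). The median GC content of the members was 48.1%, against 48.4% over all genes tested.

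Members that passed the floor through 1 group are set apart here, since the floor acts on them through the group in which they were higher. In 149 members both groups reached 0.5 FPKM, in 7 only the TIPE group and in 6 only the vector group. The first 7 were LINC01311, LINC01004, LINC02818, LINC01619, LINC00847, LINC01730 and LINC01117. The other 6 were LINC01976, LINC01978, LINC00630, LINC00866, LINC01101 and LINC00910. Of these 13, 6 were called (41.6% of all genes tested were), each in the direction through which it had passed. Just inside the floor were LINC01311 at 0.505, LINC00910 at 0.515 and LINC01101 at 0.538 FPKM, and just outside it LINC02637 at 0.487, LINC01977 at 0.482 and LINC02842 at 0.478 FPKM.

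Groups did not overlap in 59 members, 25 with every TIPE library above and 34 with every TIPE library below the vector libraries, or 36.4% of the members against 50.6% of all genes. Overlap was scored on FPKM, which were not TMM-scaled, and with library totals alone the median over all genes tested was -0.07. The share of all genes was not split by direction, so the 25 and 34 have no such share beside them. The calls covered 37 of the 59. The uncalled members ranged in log2 fold change from -0.62 (LINC02587, adjusted p = 0.0716) to 0.95 (LINC01771, 0.0804), and 76 of the 123 were within 0.25 of 0. The standard errors of LINC02587 and LINC01771 were 0.27 and 0.43, so changes of their size were not resolved at this depth.

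By position, 93 members overlapped another gene of the table and 69 overlapped none. Of the 93, 52 overlapped only on the opposite strand, 15 only on the same strand and 26 on both. In members with no overlap 7 rose and 7 fell, and in the others 14 rose and 11 fell, where 20.9% of all genes tested rose and 20.7% fell. GENCODE 29 held 161 of the members and annotated 127 as lincRNA, 11 as antisense, 9 as processed transcript and 7 as transcribed unprocessed pseudogene. The median exonic length was 2587 bp, against 4442 bp over all genes tested.

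Some noncoding genes act on their neighbours, so each called member was set beside its nearest tested gene with a symbol. The neighbour was called in the same direction for 16 of the 39 members and in the opposite direction for 9, and was not called for 14. Over all genes tested, 41.6% were called, 20.9% higher and 20.7% lower. Where a gap separated the 2 genes, the counts were 11, 7 and 9 of 27. Neighbours include each other where members pair, as LINC01978 with LINC01979 and LINC01116 with LINC01117. EFNB2, an ephrin gene 105429 bp from LINC00460, fell by 0.48 on the log2 scale, more than LINC00460. Over all 162 members the log2 fold changes of member and neighbour had a Pearson r of 0.06 and a Spearman rho of 0.03, over the same 6 libraries. This was -0.02 and -0.03 in 119 with a gap and 0.28 and 0.16 in 43 that overlap and may share reads.

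**Figure D5:**
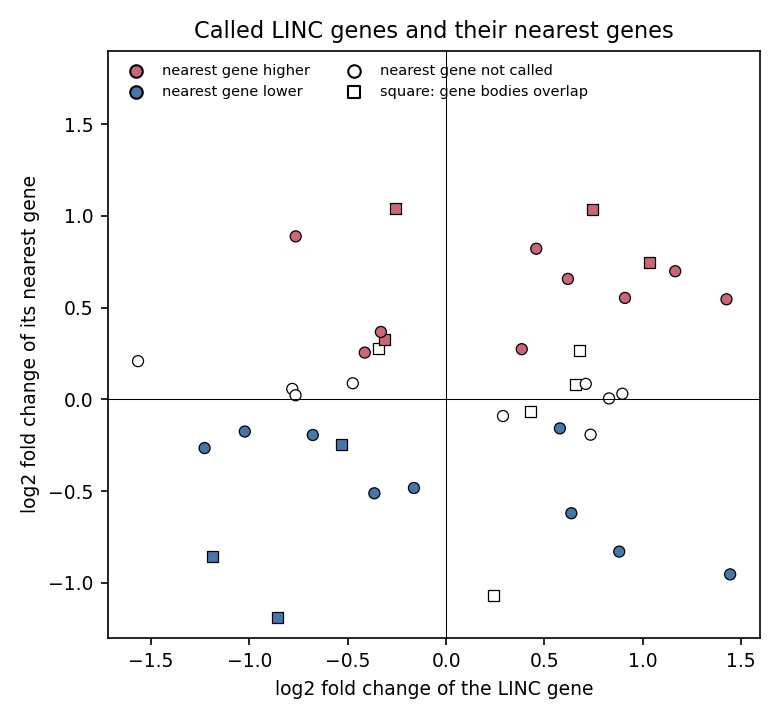
Log2 fold change of each of the 39 called LINC genes (x) and of its nearest tested gene with a symbol (y). Colour shows whether the neighbour was called, and squares mark overlapping gene bodies. Points lie in all 4 quadrants, with 16 pairs called in the same direction and 9 in opposite directions.

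Other named long noncoding RNAs were described from a list of 54 symbols, of which 26 were at or above the floor. Of these 3 rose (20.9% of all genes tested did), 6 fell (20.7%) and 17 did not pass the test. With the GC and length trend removed the balance turned, to 8 higher and 2 lower, and with limma 0 were higher and 5 lower. TUG1, a broadly expressed regulator of gene expression, was at 23.64, 24.51 and 22.26 FPKM with the vector and at 18.44, 17.75 and 17.90 FPKM with TIPE. The groups did not overlap (-0.31 ± 0.05, adjusted p = 0.000124), but with the correction for GC content and length it was not called (-0.11, adjusted p = 0.0825). NORAD, which binds PUMILIO proteins, was the highest of the list, at 94.9 ± 5.99 and 78.5 ± 2.12 FPKM (-0.20 ± 0.06, adjusted p = 0.00642). Its call was lost with the trend removed (-0.06, adjusted p = 0.445) and without vector replicate 2 (-0.17, 0.0596).

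DLEU2, host of the microRNAs miR-15a and miR-16-1, fell from 0.783 ± 0.0802 to 0.523 ± 0.0451 FPKM (-0.53 ± 0.13, adjusted p = 0.00293). PURPL, induced by p53 in other cells, was at 1.07 ± 0.201 and 0.73 ± 0.115 FPKM (-0.48 ± 0.17, adjusted p = 0.029), and lost its call without vector replicates 1 (-0.48, adjusted p = 0.0658) or 2 (-0.35, 0.2) or TIPE replicate 3 (-0.37, 0.0788), and after the GC and length correction (-0.26, 0.252). HOTAIR, transcribed from the HOXC cluster, was at 5.62 ± 0.163 and 4.45 ± 0.641 FPKM (-0.28 ± 0.11, adjusted p = 0.041). That call did not survive leaving out vector replicates 1 (-0.29, adjusted p = 0.0843), 2 (-0.27, 0.123) or 3 (-0.30, 0.066) or TIPE replicate 2 (-0.17, 0.278). DESeq2 called neither HOTAIR (adjusted p = 0.0932) nor PURPL (0.0625), and HOTAIR was lost with no filter on low values too (0.0514).

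NEAT1, the scaffold of paraspeckles, was at 1.95, 1.71 and 1.44 FPKM with the vector and at 1.85, 1.65 and 2.49 FPKM with TIPE (0.29 ± 0.11, adjusted p = 0.045). The groups overlapped, TIPE replicate 3 was the high library, and the call was lost without it (0.11, adjusted p = 0.268) and without vector replicates 2 (0.29, 0.12) or 3 (0.19, 0.264). With every library kept it was lost with DESeq2 (adjusted p = 0.27), limma on log2(FPKM + 1) (0.382) and library totals alone (0.15). A floor of 1 FPKM (0.0538) and the replicate block (0.0517) ended it too. The remaining called genes of the list were FIRRE (-0.24), DANCR (0.20) and LUCAT1 (0.27). FIRRE turned to 0.0075 with the trend removed, and DANCR was no longer called when vector replicate 1 was left out (0.15, adjusted p = 0.0895). With limma on log2(FPKM + 1), DLEU2 (adjusted p = 0.0753), DANCR (0.0901) and LUCAT1 (0.102) were not called. Among the uncalled, ELFN1-AS1 was highest, at 58.6 ± 1.73 and 56.8 ± 4.06 FPKM, and MALAT1, a nuclear speckle RNA, was at 14.2 ± 4.14 and 12.6 ± 3.43 FPKM (-0.11 ± 0.15, adjusted p = 0.596). By library MALAT1 was at 15.81, 17.23 and 9.46 FPKM with the vector and 11.07, 10.19 and 16.53 FPKM with TIPE. As for NEAT1, TIPE replicate 3 was the highest TIPE library and vector replicate 3 the lowest vector library. CCAT1 was on the list, but its values are not reported here.

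LINC symbols under the floor are no members, and in a fit with no filter on low values 16 of the 648 with a count were called, against 20.1% of all 29836 genes in that fit.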

How the data were processed

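The authors deposited 1 table for 6 poly(A) RNA libraries with a whole-number count and an FPKM per gene, beside the exonic gene size, per the file headers. Deposited counts were taken as raw. Deposited FPKM values equalled, within 0.005, the count scaled to exonic gene size and to the library's total count. Alignment used HISAT2 2.0.1 and hg38, per the submitters' processing notes. Which program counted reads, with which annotation and strand setting, was not stated in what was at hand. Groups came from the treatment label.

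Counts of the 14192 genes whose FPKM averaged 0.5 or more were fitted with edgeR 4.0.16 (quasi-likelihood test, TMM factors 0.962 to 1.03, group alone, two-sided, Benjamini-Hochberg adjusted), and calls are at an adjusted p under 0.05. FPKM were not TMM-scaled, so their ratio can differ from the fitted fold change. Where a count is 0, up to 3 counts, or 0.147 to 0.215 CPM, remain possible, which covers counting error only. Libraries of a group differed by more than sampling noise (chi-square per gene of 2.32 to 8.28, against 23.9 to 43.4 between groups). TIPE replicate 3 gave the high values within a group, 8.28 and 7.76, and the other pairs within a group reached at most 3.86. R 4.3.3, limma 3.58.1 and DESeq2 1.42.0 served 17 alternative fits, with pseudocounts of 1 and 0.1 on FPKM. GC content and biotypes came from GENCODE 29, and promoter windows and current symbols from RefSeq tables.

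The members and gene lists were chosen with earlier results of these data known. Named in full are the 8 largest called increases and 8 largest called decreases whose groups did not overlap, the 6 members of highest FPKM, those passing the floor through 1 group, the 3 on each side of the floor, and, from the list of other noncoding genes, up to 6 called genes with the largest change and the highest uncalled. The remaining called members, LINC00511, LINC00963, LINC02587, LINC01771, FIRRE, NORAD and DANCR were named after their values were seen.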

Additional observations from a re-analysis of the deposited data

How the results depend on the processing

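The 21 increases and 18 decreases among LINC genes were within 1.5 times under most alternatives. With library totals alone 30 fell, and the median log2 fold change over the members was -0.047, against -0.033 with limma on log2(FPKM + 1) and -0.059 on log2(FPKM + 0.1). The median of all genes tested was then at -0.07, -0.06 and -0.07. Members that overlap no other gene gave 7 increases and 7 decreases, from fewer members. Leaving out 1 library gave 15 to 23 increases and 11 to 20 decreases, the fewest of each without vector replicate 2, and a median of -0.02 to 0.04. Over all genes tested, 5903 were called with every library. The fewest, 4491, were called without vector replicate 2 and the most, 6336, without TIPE replicate 3. Removing the GC and length trend turned LINC01184 to 0.097 and FIRRE to 0.0075, and to 0.093 and 0.0075 with the block as well.

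Among other named noncoding RNAs, 3 increases became 1 with library totals and 0 with either limma fit, where 5 decreases were called with each. With the GC and length trend removed, with or without the block, 8 rose and 2 fell. Leaving out 1 library gave 2 to 3 increases and 3 to 7 decreases, the fewest decreases without vector replicate 2.

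Same-numbered libraries had correlations of -0.0051, -0.02 and -0.05 in their deviations from the group means, so the numbers were not taken as pairs. With the replicate block 38 LINC genes were called, all among the 39, as 21 increases and 17 decreases. limma on log2(FPKM + 1) understates changes near the floor by construction, as -0.53 for LINC01978. Depth limits the 70 members under 50 counts, and 14 had under 10.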

Other observations

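LINC genes under the floor were fitted with no filter on low values, where 20.1% of 29836 genes were called. Of the 648 with any count, 12 rose, 4 fell and 632 did not pass, and 7 of the 16 had a mean of at least 10 counts. These genes were named after their values were seen, and the alternatives were not run on them. LINC01270 (chr20:50292709-50315488) had 8, 10 and 15 counts with the vector and 40, 36 and 20 with TIPE, with no overlap between the groups (log2 fold change 1.55 ± 0.33, edgeR adjusted p = 4.42e-05). LINC01060 (chr4:188400736-188681051) had 32, 24 and 19 counts against 43, 79 and 38 (1.10 ± 0.24, adjusted p = 4.53e-05). LINC02254 (chr15:97339693-97523442) had 38, 55 and 26 counts against 60, 78 and 56 (0.74 ± 0.20, adjusted p = 0.00194). LINC01376 (chr2:18986451-19348067) went the other way, with 26, 37 and 17 counts against 10, 16 and 12 (-1.02 ± 0.34, adjusted p = 0.0157). LINC01470 had 0 counts in each vector library and 4, 5 and 5 in the TIPE libraries, so the vector level is known only to lie under the 3 counts that a count of 0 allows. By position LINC01270, LINC01060, LINC02254 and LINC01470 each overlap another gene and may share reads with it, while LINC01376 overlaps none.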
